A study of Homo sapiens with 12 samples.

Results

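Translation initiation and elongation factors were followed across 4 groups of RNA-seq libraries from a study of the RNA-binding protein HuR, in its wild-type (WT) form and in a form that cannot be SUMOylated at a pair of lysines. The set held the protein-coding genes whose symbol begins with EIF and a digit from 1 to 6, or with EEF1A, EEF1B, EEF1D, EEF1G or EEF2, without the EIF2AK kinases, EEF2K and EEF2KMT. By this rule 61 of 57773 gene identifiers were members, and 1 of them lies on the Y chromosome and is not described. Of the other 60, 58 passed the filter on low counts, as did 22984 genes in all. EEF1A2 and EIF4E1B did not pass. The rule also took in 3 genes for methyltransferases that act on eEF1A (EEF1AKMT1, EEF1AKMT2 and EEF1AKMT3), which are not factors themselves and are described last.

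The cells were HuH-7, an established human hepatoma line, and both lines stably carried V5-tagged HuR, either WT or K120/182R, in which a pair of lysines used for SUMOylation is replaced by arginine. RNA was sequenced after RNA immunoprecipitation (RIP) of the tag and from total RNA of the same line (input), with 3 libraries each of WT RIP, WT input, mutant RIP and mutant input. The precipitates gave 16 to 77 ng of RNA for library preparation and inputs 250 ng, so that precipitation and RNA amount cannot be told apart when a precipitate is set against its input. Controls for unspecific recovery, such as an untagged line or a mock antibody, are not used here. All groups carry the tagged protein on top of the cells' own ELAVL1 gene, and gene-level counts do not separate the 2 sources. The labels name no separate cultures or clones, so each p-value rests on the variation among these samples only, and that may be technical.

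Initiation factors bring the small ribosomal subunit, the initiator tRNA and the capped mRNA together: eIF4F binds the cap and unwinds the mRNA, eIF3 holds the subunit, and eIF2 delivers the initiator tRNA and is recharged by eIF2B. Elongation factors then bring aminoacyl-tRNAs to the ribosome (eEF1A, recharged by the eEF1B complex) and move the ribosome along (eEF2). HuR, encoded by ELAVL1, is an RNA-binding protein known for binding U-rich and AU-rich stretches, often in 3' UTRs. In hepatoma cells, as in other growing cells, the mRNAs of these factors are abundant.

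To show what such stretches look like in these mRNAs, the following are the 30 bases with the most T in the 3' UTR of 4 members that were higher and 4 that were lower in both precipitates than in their inputs, chosen as the most extreme among those eligible (EIF3CL and the methyltransferases were left out). They are mRNA-sense DNA, 5′ to 3′, from GENCODE release 44 transcripts placed on GRCh37, and capitals mark runs of at least 4 T. The higher set is EEF1B2 (chr2:207027614-207027643, plus strand), EIF4A2 (chr3:186507499-186507528, plus strand), EIF2A (chr3:150302534-150302563, plus strand) and EIF3A (chr10:120794721-120794750, minus strand). The lower set is EIF5A (chr17:7215419-7215448), EIF3K (chr19:39126141-39126170), EIF3C (chr16:28746905-28746934) and EIF3I (chr1:32700919-32700948), all on the plus strand.
EEF1B2: tcctggatcatggcatttaaataaaagatt
EIF4A2: tttgaatgcaTTTTgtttggtattgtattt
EIF2A: TTTTTcTTTTcctttgcccaTTTTTctgtt
EIF3A: tttaaattctctttcctaaTTTTctttctt
EIF5A: tggtttagtcTTTTTTTTTTTTTTTTTTTT
EIF3K: attctctagtttgggtgattccacaTTTTT
EIF3C: tctgtttaaagttgttctggttgattgctt
EIF3I: ttctgtccatgaaatggTTTTTTTTTTTTT
The window of EEF1B2, the factor most raised in both precipitates, held 10 T in a 3' UTR of 44 bases. The window of EIF5A, one of the most lowered, held 25 T in 645 bases. Over all coding genes tested the median of the T-richest 30 bases was 19 T. Among the windows shown, the richest stretch alone did not order the members by direction, but these few are not all members. Across the 57 members with such a window, its T count had a Spearman correlation with the RIP to input difference of 0.33 (WT) and 0.37 (mutant). Its median was 18.5 T in members higher in both lines, 16.5 T in those lower in both and 20 T in neither set. A stretch of T is a description of the sequence and not a HuR site.

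The libraries held 31774994 to 73149117 gene counts. Members took 1.72% ± 0.192 of the counts in WT RIP and 0.751% ± 0.153 in WT input (SD, n = 3), and 1.43% ± 0.173 in mutant RIP and 0.505% ± 0.0278 in mutant input. Protein-coding genes as a whole took 64.3% to 73.4% of the counts in precipitates and 23.8% to 39.2% in inputs. All 15 hepatocyte and hepatoma markers were above 1 CPM (counts scaled to a common library size) in every library, and their summed level was 4056 to 6701 CPM in precipitates and 10016 to 14238 in inputs. Of the immune markers LYZ was at 3.28 to 7.77 CPM, CD68 at 1.71 to 4.73, CD3E at up to 2.52 and PTPRC at most at 0.775, stromal markers summed to at most 3.86 with COL1A1, DCN and LUM under 0.1, and the endothelial VWF and CDH5 summed to at most 0.127. ELAVL1 was 54.1 to 64.2 CPM in WT inputs, 44.4 to 52.7 in mutant inputs, 32.5 to 38.0 in WT RIP and 24.9 to 31.6 in mutant RIP, which does not check the labels since both lines express it.

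Levels below are CPM on library sizes scaled by TMM factors (a trimmed mean of log ratios between libraries), and differences are log2 fold changes ± SE from edgeR's quasi-likelihood test, called at a Benjamini-Hochberg adjusted p under 0.05 over all 22984 genes. This scale sets the middle of all genes near 0. With total library sizes instead, the median over all genes moved from 0.06 to 1.12 for WT RIP against input, from 0.07 to 1.38 for mutant RIP against input, from 0.00 to 0.25 for the difference of both, from 0.01 to -0.17 between precipitates and from 0.00 to -0.43 between inputs. Higher and lower are therefore relative to the middle of all genes, and many members changed sign with total library sizes.

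Members were called in both directions, with more lower than higher in the WT line and close to even numbers in the mutant line. In WT RIP against WT input, 10 of 58 members were higher and 26 lower, with a median of -0.21. Over all genes tested 50.9% were called, 25.6% higher and 25.4% lower, with a median of 0.06, and of 14017 coding genes 3090 were higher and 4770 lower, with a median of -0.13. In mutant RIP against mutant input, 22 members were higher and 20 lower, with a median of 0.03, beside 57% of all genes called, 29% higher and 28% lower. Each line has its own inputs, and 10 members were higher in both lines, 19 lower in both, and 0 called in opposite directions. Of the rest, 12 were higher in the mutant comparison and not called in the WT one, 1 was lower in the mutant comparison only and 7 in the WT one only, which does not show a difference between the lines. Joint counts of this kind over all genes are not given here, and both comparisons use the same scale. Agreement between the lines is therefore not read as a trait of the members. With total library sizes 42 and 48 members were higher, and the members still lower were EEF1D and EIF3CL in the WT and EEF1D in the mutant comparison. With TMM factors from coding genes 17 members were higher and 21 lower in the WT comparison and 25 and 19 in the mutant one. With the GC trend removed the counts were 10 higher and 21 lower, and 13 higher and 18 lower. In that setting the calls lost in the WT comparison were EIF4A1, EIF4G1, EIF4EBP1, EIF2B3, EIF2B4, EIF3A, EIF3B, EIF3G and EEF2. In the mutant comparison they were EIF4B, EIF4E, EIF4E3, EIF4G1, EIF4G3, EIF4EBP1, EIF2A, EIF2B4, EIF2D, EIF2S1, EIF2S3, EIF2S3B, EIF3F, EIF3G, EIF3H, EIF3M and EIF6.

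**Figure D1:**
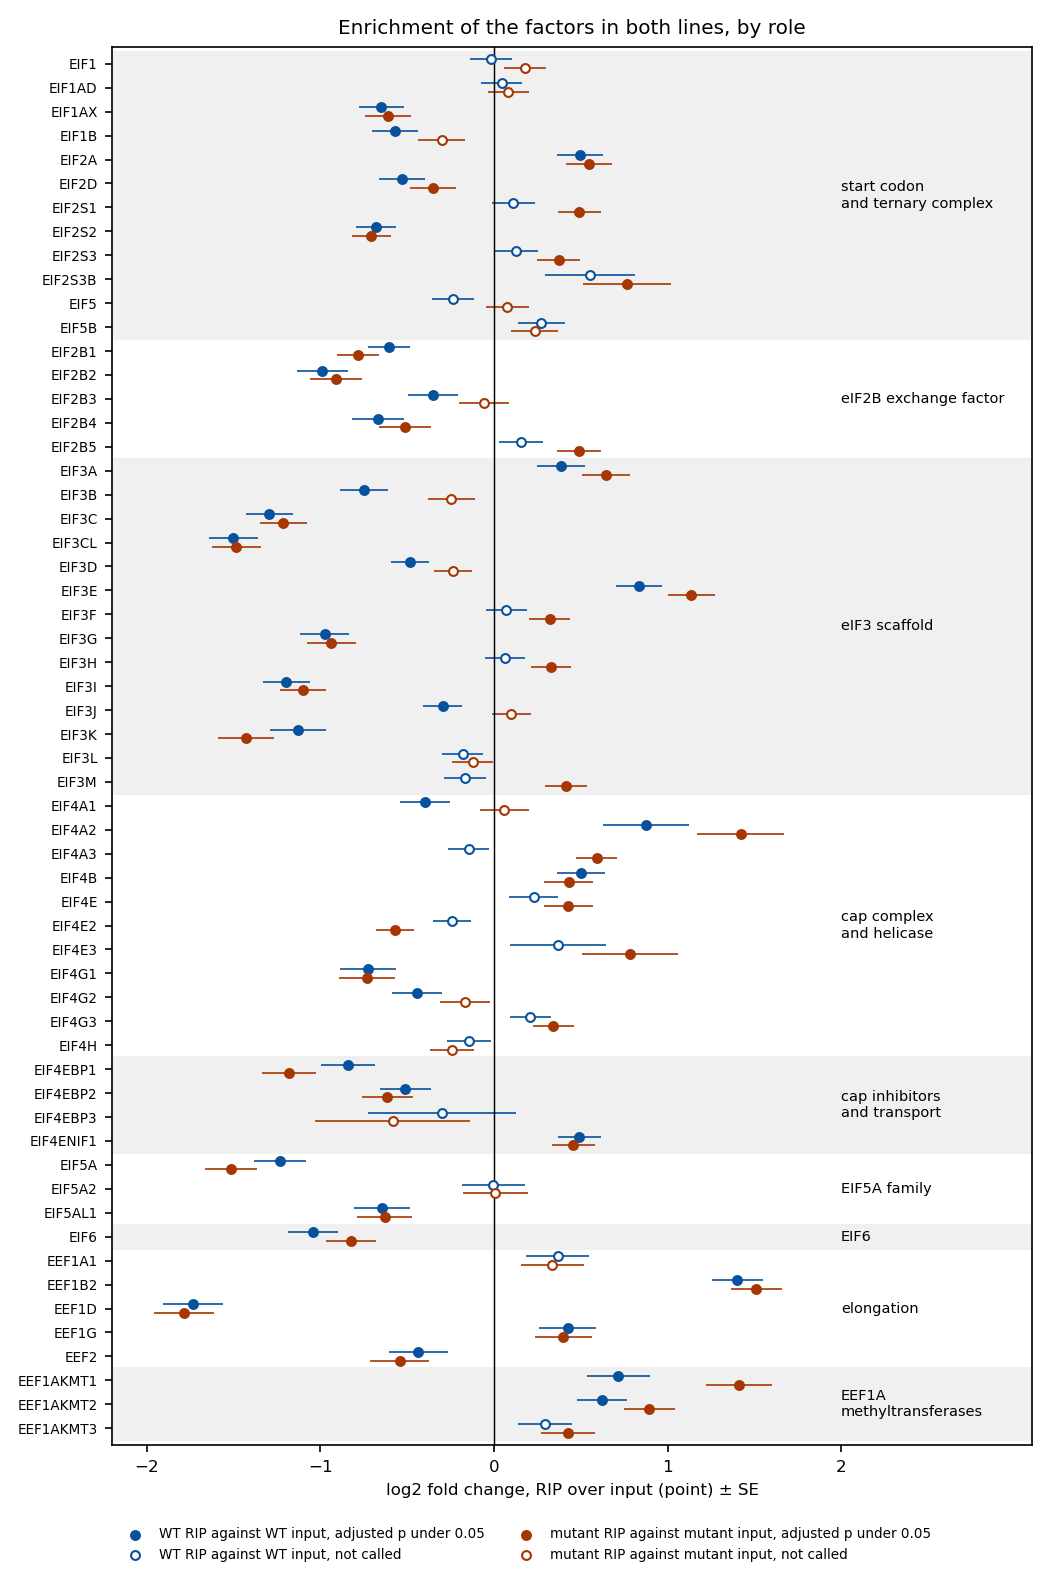
Log2 fold change of RIP over input (horizontal axis, point ± SE) for the 58 tested members, grouped by role, in the WT (blue) and mutant (orange) lines, with filled points for calls. The eIF2B, EIF5A and EIF6 groups lie mostly left of 0, while EEF1B2 at 1.40 and 1.51 and EEF1D at -1.73 and -1.78 mark the ends; with total library sizes most points left of 0 move to the right of it.

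Among the elongation factors, the subunits of the eEF1B exchange complex went opposite ways. EEF1B2, the alpha subunit (chromosome 2, 207024309 to 207027652, plus strand), was at 273, 280 and 286 CPM in WT inputs and at 721, 797 and 702 in WT RIP. In the mutant line its inputs were at 267, 340 and 297 and its precipitates at 746, 952 and 883. Every precipitate was above every input in both lines. The difference was 1.40 ± 0.15 in the WT line (edgeR adjusted p = 1.85e-08) and 1.51 ± 0.15 in the mutant line (edgeR adjusted p = 3.25e-09), the highest of all members in both.

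EEF1D, the delta subunit of the same complex, was at 85.9, 74.4 and 95.8 CPM in WT inputs and at 19.6, 29.8 and 27.5 in WT RIP. Mutant inputs held 117, 96.5 and 78.7 and mutant precipitates 30.8, 31.5 and 22.3. The groups did not overlap, and EEF1D was the member with the lowest values in both comparisons, at -1.73 ± 0.17 (edgeR adjusted p = 2.68e-08) and -1.78 ± 0.17 (edgeR adjusted p = 1.07e-08). It was also the 1 member that stayed lower in both lines with total library sizes, at -0.71 and -0.47. EEF1G, the gamma subunit, had means of 763 ± 80.6 CPM in WT input, 1024 ± 60.6 in WT RIP, 670 ± 72.3 in mutant input and 884 ± 174 in mutant RIP (SD, n = 3). It was called at 0.42 ± 0.16 and 0.40 ± 0.16, but each call was lost in 4 of the 6 fits that left out 1 library, with an edgeR adjusted p of up to 0.0995 without WT input replicate 2 and 0.169 without mutant input replicate 3. A readthrough gene covers 99.7% of the exon bases of EEF1G, and its total of 546339 counts is close to the 542978 of EEF1G, and reads in the shared exons cannot be told apart here.

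EEF1A1, which brings aminoacyl-tRNA to the ribosome, was the most abundant member. It was at 3898, 3620 and 4099 CPM in WT inputs, 5448, 5138 and 4399 in WT RIP, 3130, 3442 and 2895 in mutant inputs, and 4397, 3890 and 3663 in mutant RIP. The precipitates lay above the inputs of their line without overlap, and the differences of 0.37 ± 0.18 and 0.34 ± 0.18 missed the threshold (edgeR adjusted p = 0.0963 and 0.12). The 48 pseudogenes named after EEF1A1 held counts that came to 57.3% of its own, with means of 2164 CPM in WT input, 2917 in WT RIP, 1773 in mutant input and 2291 in mutant RIP, so how reads of near copies were placed bears on its level. The same holds to a lesser degree for EIF4E (28.9%), EIF4B (16.3%), EIF3F (13.1%) and EIF2S2 (11.95%). EEF1A2, its paralog known from muscle and neurons, whose coding sequence is 78.6% identical, was at 2 to 18 counts in each input library and 0 to 4 in each precipitate.

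EEF2, the translocase, was at 419, 381 and 541 CPM in WT inputs and 339, 302 and 351 in WT RIP. Mutant inputs held 570, 439 and 416 and mutant precipitates 403, 308 and 267. All precipitates were below the inputs of their line, at -0.44 ± 0.17 (edgeR adjusted p = 0.0336) and -0.54 ± 0.17 (edgeR adjusted p = 0.00797). The sign of EEF2 turned with total library sizes (0.62 and 0.78) and with the trend of each library with GC content removed (0.32 and 0.40). The WT call was lost without WT RIP replicate 1, WT RIP replicate 2, WT input replicate 1 or WT input replicate 3 (edgeR adjusted p = 0.223 for the last), and the mutant call without mutant input replicate 1 or mutant RIP replicate 3 (edgeR adjusted p = 0.0559 and 0.0643).

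In the cap complex and helicase group the 3 DEAD-box helicases of the eIF4A family differed from each other. EIF4A2 (chromosome 3, 186500994 to 186507686, plus strand), one of the paired eIF4F helicases, was at 163, 274 and 140 CPM in WT inputs, 290, 412 and 359 in WT RIP, 146, 204 and 220 in mutant inputs, and 376, 522 and 629 in mutant RIP. Precipitates were above inputs without overlap, at 0.88 ± 0.25 (edgeR adjusted p = 0.00759) and 1.42 ± 0.25 (edgeR adjusted p = 0.000146). Without WT RIP replicate 2 the WT call was lost (edgeR adjusted p = 0.0548). EIF4A1, the other eIF4F helicase, with 76.9% identity to EIF4A2 over the coding sequence, was at 543, 549 and 557 CPM in WT inputs, 357, 478 and 417 in WT RIP, 524, 539 and 514 in mutant inputs, and 507, 602 and 534 in mutant RIP. It was lower in WT RIP (-0.40 ± 0.14, edgeR adjusted p = 0.022), a call kept only without WT RIP replicate 2 (edgeR adjusted p of up to 0.0989, without WT RIP replicate 1) and turned to 0.65 by total library sizes, and it was at 0.06 ± 0.14 in the mutant line, where the groups overlapped. EIF4A3, the helicase of the exon junction complex rather than of eIF4F, was at -0.15 ± 0.12 in the WT comparison (0.90 with total library sizes) and was called at 0.59 ± 0.12 in the mutant one (edgeR adjusted p = 0.000134).

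Other members of the cap complex were called in both directions. EIF4E, which binds the cap, was at 28.2, 28.8 and 21.7 CPM in WT inputs, 34.5, 26.6 and 31.2 in WT RIP, 23.6, 30 and 30.9 in mutant inputs, and 37.8, 33.0 and 43.0 in mutant RIP. The WT groups overlapped (0.23 ± 0.14) and the mutant groups did not (0.43 ± 0.14, edgeR adjusted p = 0.0117), a call lost without mutant RIP replicate 3 or mutant input replicate 1 (edgeR adjusted p = 0.078 and 0.0835) and turned to -0.17 with the GC trend removed. EIF4G1, the scaffold, was at 53.7, 49.9 and 76.8 CPM in WT inputs, 29.0, 43.7 and 36.3 in WT RIP, 57.9, 55.0 and 44.8 in mutant inputs, and 31.0, 35.4 and 28.5 in mutant RIP. Its precipitates were below its inputs in both lines, at -0.73 ± 0.16 each (edgeR adjusted p = 0.000679 and 0.000531), while total library sizes gave 0.30 and 0.58 and removing the GC trend gave 0.02 in the mutant line. Its paralog EIF4G3 was at 0.21 ± 0.12 and, in the mutant line, was called at 0.34 ± 0.12, a call lost without mutant input replicate 2, mutant RIP replicate 1 or mutant RIP replicate 2 (edgeR adjusted p of up to 0.0707). EIF4B, a helicase cofactor, was called in both comparisons, at 0.50 ± 0.14 and 0.43 ± 0.14, and the second call was lost without mutant RIP replicate 1 or mutant input replicate 3 (edgeR adjusted p = 0.0561 and 0.0695). The cap complex and helicase group had 11 tested members and took in EIF4A3 and EIF4G2. In the WT line 2 were higher and 3 lower, EIF4G2 among the lower, beside 25.6% and 25.4% of all genes. In the mutant line 6 were higher, EIF4A3 among them, and 2 lower, beside 29% and 28%. With total library sizes 10 and 11 were higher and 0 lower. With the GC trend removed 2 were higher and 2 lower in each line. The germline-type paralog EIF4E1B had 0 counts in all 6 inputs and at most 10 in a precipitate.

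**Figure D2:**
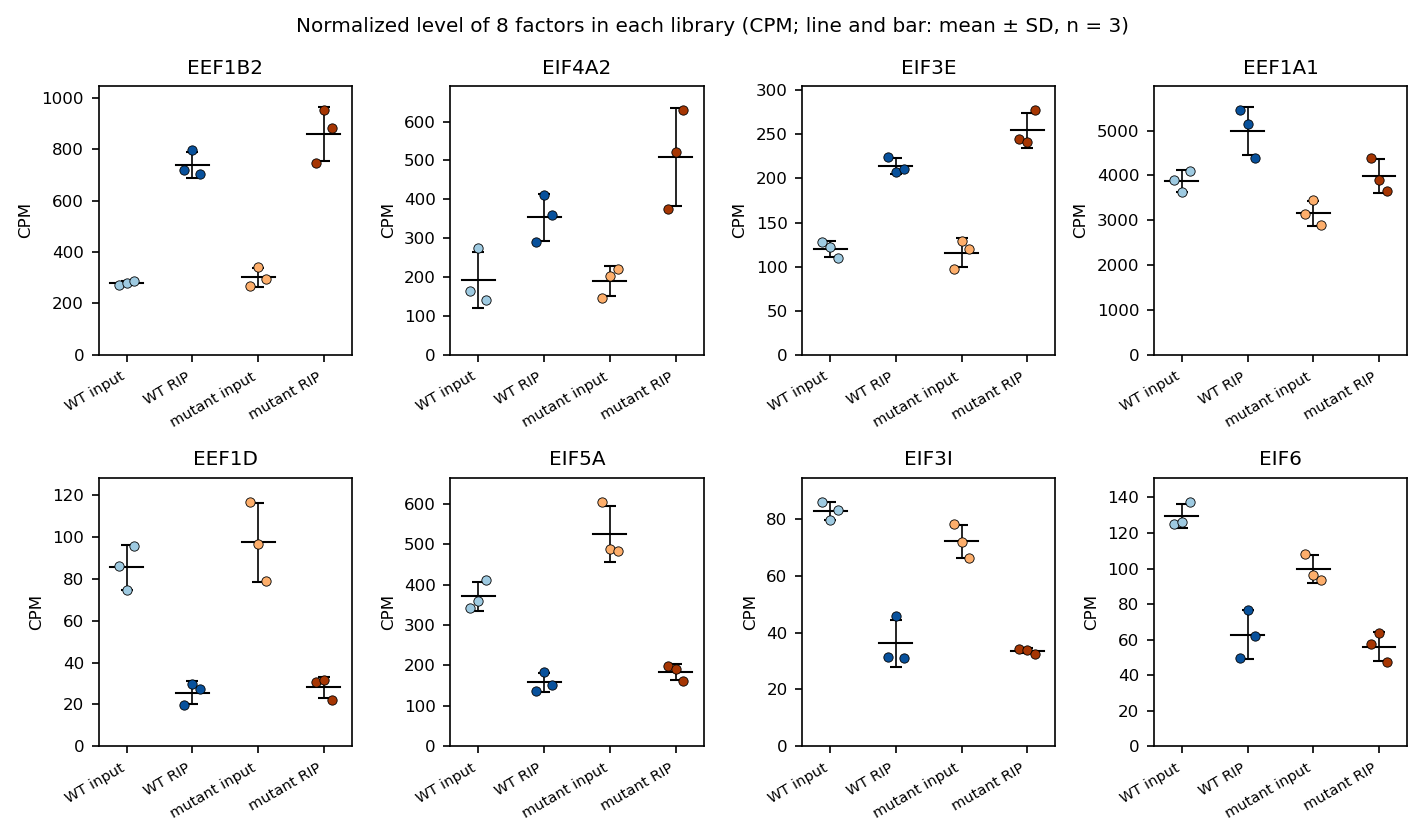
Level in each library (CPM) of 4 members with values above input and 4 below, with 1 point per library, a line for the mean and a bar for the SD (n = 3). Precipitates of EEF1B2 lie at 702 to 952 CPM against 267 to 340 in inputs, and those of EEF1D at 19.6 to 31.5 against 74.4 to 117; on total library sizes EEF1D stays lower, while EIF3I and EIF6 have positive values in the mutant line.

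Inhibitors of eIF4E were among the depleted members. EIF4EBP1, which sequesters eIF4E until it is phosphorylated by mTOR, was at 49.0, 54.1 and 56.3 CPM in WT inputs, 26.1, 37.1 and 25.8 in WT RIP, 86.1, 63.6 and 65.3 in mutant inputs, and 32.7, 36.7 and 25.4 in mutant RIP. No precipitate reached an input of its line, and the differences were -0.84 ± 0.16 (edgeR adjusted p = 7.7e-05) and -1.18 ± 0.16 (edgeR adjusted p = 6.68e-07). Total library sizes turned the sign in both lines (0.20 and 0.12), and removing the GC trend turned it in the WT line (0.07). EIF4EBP2 was lower by the test in both lines too, at -0.51 ± 0.15 and -0.61 ± 0.15, and turned to 0.57 and 0.71 with total library sizes. EIF4EBP3, at 0.206 to 0.661 CPM, was not called, and a readthrough gene covers 73.2% of its exon bases. EIF4ENIF1, which carries eIF4E into the nucleus, was higher in both lines, at 0.49 ± 0.12 and 0.46 ± 0.12.

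Start codon selection and tRNA delivery gave a mixed picture, with 1 of 12 members higher and 4 lower in the WT line and 4 higher and 3 lower in the mutant line. The shares of all genes were 25.6% higher and 25.4% lower in the WT line, and 29% and 28% in the mutant line. On total library sizes 11 and 12 were higher, where EIF1AX, EIF1B, EIF2D and EIF2S2 turned to positive values in both lines and EIF1 and EIF5 in the WT line. With the GC trend removed the counts were 1 higher and 5 lower, and 0 higher and 4 lower. The subunits of eIF2 did not move together. EIF2S1, the alpha subunit that stress kinases phosphorylate, was at 23.5, 21.3 and 18.5 CPM in WT inputs, 23.0, 19.6 and 25.8 in WT RIP, 21.2, 23.4 and 22.02 in mutant inputs, and 31.8, 30.5 and 31.3 in mutant RIP. The WT groups overlapped (0.11 ± 0.12) and the mutant precipitates lay above their inputs (0.49 ± 0.12, edgeR adjusted p = 0.00151), a call lost with the GC trend removed (0.06, edgeR adjusted p = 0.649). EIF2S2, the beta subunit, was lower in both lines, at -0.68 ± 0.11 and -0.71 ± 0.11, and EIF2S3, the gamma subunit, was at 0.13 ± 0.12 in the WT line and was called at 0.37 ± 0.12 in the mutant one, lost without mutant RIP replicate 3 or mutant input replicate 1 (edgeR adjusted p = 0.0528 and 0.0897). The sign of EIF2S2 was positive with total library sizes (0.38 and 0.60). The copy EIF2S3B is 98.2% identical to EIF2S3 over the aligned coding bases, and reads of these near copies cannot be told apart here.

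EIF2A, a separate protein that can deliver initiator tRNA, was higher in both lines, at 0.49 ± 0.13 and 0.55 ± 0.13, and the mutant call was lost with the GC trend removed (0.14, edgeR adjusted p = 0.3). EIF1AX, which helps scanning, was at 101, 94.9 and 79.1 CPM in WT inputs, 63.6, 51.1 and 60.5 in WT RIP, 59.9, 70.6 and 65.3 in mutant inputs, and 43.1, 36.4 and 48.6 in mutant RIP. Each precipitate was below each input of its line (-0.65 ± 0.13 and -0.61 ± 0.13), with 0.42 and 0.70 on total library sizes. EIF1AX has a transcript of low GC content, 35.1%, unlike most members that were lower in both lines. EIF5 and EIF5B, which act at subunit joining, were not called in either line.

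The eIF2B exchange factor has 5 subunits that recharge eIF2 with GTP. On the TMM scale 4 were lower in the WT line, and 3 were lower and 1 higher in the mutant line. Beside these few genes, 25.4% of all genes were lower in the WT line, and 28% lower and 29% higher in the mutant line. EIF2B2, the beta subunit, was at 10.02, 8.56 and 9.56 CPM in WT inputs, 4.90, 5.19 and 4.11 in WT RIP, 9.18, 8.63 and 7.93 in mutant inputs, and 4.24, 4.78 and 4.68 in mutant RIP. Its precipitates did not overlap its inputs and its differences were -0.99 ± 0.15 (edgeR adjusted p = 3.45e-06) and -0.91 ± 0.15 (edgeR adjusted p = 9.53e-06). EIF2B1 and EIF2B4 were lower in both lines, between -0.51 and -0.78. EIF2B5, the catalytic subunit, was at 0.16 ± 0.13 and, in the mutant line, was higher at 0.49 ± 0.13 (edgeR adjusted p = 0.00183). EIF2B3 was lower in the WT line (-0.35 ± 0.14), a call kept only without WT input replicate 2 (edgeR adjusted p of up to 0.157, without WT input replicate 1). With total library sizes all 5 subunits had positive values in both lines, and with the GC trend removed EIF2B4 was at 0.19 in the mutant line.

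The eIF3 scaffold, the largest group, was split. Its counts stand beside shares over all genes of 25.6% higher and 25.4% lower (WT) and 29% and 28% (mutant). Of 14 members 2 were higher and 8 lower in the WT line and 5 higher and 5 lower in the mutant line; total library sizes gave 8 higher and 1 lower, and 9 higher and 0 lower, with EIF3B, EIF3D and EIF3L turning to positive values in both lines and EIF3J and EIF3M in the WT line. With the GC trend removed 1 was higher and 7 lower, and 3 higher and 5 lower. EIF3E was at 128, 122 and 110 CPM in WT inputs, 224, 208 and 211 in WT RIP, 97.2, 129 and 120 in mutant inputs, and 245, 241 and 277 in mutant RIP. All precipitates exceeded all inputs, at 0.84 ± 0.13 (edgeR adjusted p = 8.7e-06) and 1.14 ± 0.13 (edgeR adjusted p = 6.38e-08). EIF3A, the large core subunit, was also higher in both lines, at 0.39 ± 0.14 and 0.65 ± 0.14, although its WT groups overlapped and that call was lost without WT RIP replicate 3, WT input replicate 1 or WT input replicate 2 (edgeR adjusted p of up to 0.12).

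At the other end, EIF3I was at 85.9, 79.6 and 83.0 CPM in WT inputs, 31.6, 45.8 and 31.2 in WT RIP, 78.1, 71.8 and 66.3 in mutant inputs, and 34.3, 34.0 and 32.6 in mutant RIP. The groups were far apart, with differences of -1.20 ± 0.13 (edgeR adjusted p = 4.88e-08) and -1.10 ± 0.13 (edgeR adjusted p = 1.21e-07). EIF3K was at 44.8, 37.2 and 50.3 CPM in WT inputs, 16.4, 23.7 and 20.6 in WT RIP, 52.9, 43.9 and 39.5 in mutant inputs, and 17.9, 19.7 and 12.9 in mutant RIP, with no overlap. It was lower at -1.13 ± 0.16 and -1.43 ± 0.16. EIF3G, a subunit that takes part in scanning, was lower at -0.98 ± 0.14 and -0.94 ± 0.14. EIF3C and its copy EIF3CL, with 100% identity over the aligned coding bases, were lower in both lines, EIF3C at -1.29 ± 0.13 and -1.21 ± 0.14 and EIF3CL at -1.50 ± 0.14 and -1.48 ± 0.14. EIF3C was at 49.5, 47.3 and 61.4 CPM in WT inputs, 19.8, 25.2 and 19.5 in WT RIP, 50.9, 47.6 and 38.8 in mutant inputs, and 20.5, 19.5 and 19.1 in mutant RIP. EIF3CL was at 47.9, 45.4 and 59.7 CPM in WT inputs, 16.2, 20.8 and 16.9 in WT RIP, 49.2, 45.4 and 36.3 in mutant inputs, and 17.0, 15.8 and 14.1 in mutant RIP. Neither gene's groups overlapped, and reads of these copies cannot be told apart here. On total library sizes EIF3G turned to positive values in both lines and EIF3C and EIF3I in the mutant line, and with the GC trend removed EIF3G was at 0.03 in the mutant line.

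EIF5A, the hypusine-bearing factor that relieves stalled ribosomes (chromosome 17, 7210318 to 7215782, plus strand), was at 343, 359 and 412 CPM in WT inputs and 138, 185 and 152 in WT RIP. Mutant inputs held 605, 487 and 482 and mutant precipitates 198, 191 and 161. Precipitates were far below inputs, at -1.23 ± 0.15 (edgeR adjusted p = 1.87e-07) and -1.51 ± 0.15 (edgeR adjusted p = 4.4e-09). Its paralog EIF5A2, with 72.9% identity over the coding sequence, was at 6.59, 6.76 and 4.76 CPM in WT inputs, 7.18, 4.90 and 5.99 in WT RIP, 3.79, 4.84 and 5.00 in mutant inputs, and 4.80, 3.85 and 5.09 in mutant RIP. These groups overlapped (-0.00 ± 0.18 and 0.01 ± 0.19), and EIF5A2 was at 1.08 with total library sizes in the WT line and at -0.61 with the GC trend removed in the mutant line. EIF5AL1, 98.9% identical to EIF5A over the aligned coding bases, was lower at -0.64 ± 0.16 and -0.63 ± 0.16 at 3.65 to 9.24 CPM, and reads of these near copies cannot be told apart here. Total library sizes gave positive values for EIF5AL1 in both lines.

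EIF6, which keeps the ribosomal subunits apart, was at 125, 126 and 137 CPM in WT inputs, 49.5, 76.8 and 62.3 in WT RIP, 108, 96.6 and 93.5 in mutant inputs, and 57.3, 63.6 and 47.3 in mutant RIP. Precipitates were below inputs in both lines, at -1.04 ± 0.14 (edgeR adjusted p = 1.27e-06) and -0.83 ± 0.14 (edgeR adjusted p = 2.31e-05). The WT call was lost with total library sizes (-0.01) and the mutant value turned to 0.48, and with the GC trend removed the values were -0.28, still a call, and 0.15. A same-strand coding gene shares 17.3% of its exon bases.

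The methyltransferase EEF1AKMT1, which modifies eEF1A, was at 3.15, 3.43 and 2.87 CPM in WT inputs, 5.23, 5.65 and 4.65 in WT RIP, 2.09, 1.85 and 2.91 in mutant inputs, and 5.15, 6.48 and 6.61 in mutant RIP. No input reached a precipitate of its line, and it was higher at 0.72 ± 0.18 (edgeR adjusted p = 0.00186) and 1.41 ± 0.19 (edgeR adjusted p = 5.77e-07). EEF1AKMT2 was at 13.9, 14.0 and 9.97 CPM in WT inputs, 20.3, 19.1 and 18.8 in WT RIP, 11.2, 14.7 and 14.1 in mutant inputs, and 23.2, 22.1 and 29.2 in mutant RIP. It was higher too, at 0.62 ± 0.15 and 0.89 ± 0.15. Same-strand coding genes share 14.8% of the exon bases of EEF1AKMT2 and 11.2% of those of EEF1AKMT3. EEF1AKMT3 was at 0.30 ± 0.16 and 0.43 ± 0.16, and the second, a call, was lost without mutant RIP replicate 1, mutant RIP replicate 2 or mutant input replicate 3 (edgeR adjusted p of up to 0.148). Without the 3 methyltransferases 8 of 55 members were higher and 26 lower in the WT line and 19 and 20 in the mutant line.

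Whether the mutation changed the enrichment was asked by the difference of the enrichments, mutant minus WT. No member was called by edgeR, beside 0.0653% of all genes, all of them higher and 0% lower. Before adjustment, 8 members had an edgeR p under 0.05, 7 with positive and 1 with a negative value, and DESeq2 called 2. The shares of all genes by these 2 measures are not given here. Among 51 other genes of the translation pathway, 8 also had such a p and DESeq2 called 2. The lowest edgeR adjusted p, 0.08, belonged to EIF4A3, with a difference of 0.74 ± 0.17. The others under the unadjusted threshold were EIF3M (0.58 ± 0.17, edgeR adjusted p = 0.145), EEF1AKMT1 (0.69 ± 0.26), EIF3B (0.50 ± 0.19), EIF3J (0.40 ± 0.16), EIF4A1 (0.46 ± 0.20), EIF2S1 (0.38 ± 0.18) and EIF4E2 (-0.33 ± 0.15). DESeq2 called EIF4A3 (0.73, DESeq2 adjusted p = 0.00338) and EIF3M (0.58, DESeq2 adjusted p = 0.0276), and edgeR called EIF4A3 with coding genes only (0.74, edgeR adjusted p = 0.0416), without the filter (0.73, edgeR adjusted p = 0.0454) and with the GC trend removed (0.78, edgeR adjusted p = 0.0193), in the last case with EIF3B (0.68, edgeR adjusted p = 0.0394). The median over members was 0.12, with 41 of 58 values above 0, beside 0.00 over all genes, with 11573 of 22984 above 0. Other genes of the translation pathway, described below, had a median of 0.10, with 29 of 51 above 0.

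Set directly against each other, the precipitates differed in 11 members, 8 higher and 3 lower in mutant RIP than in WT RIP, beside 19.6% of all genes called, 9.87% higher and 9.76% lower. EIF4A3 (chromosome 17, 78108168 to 78120950, minus strand), which marks spliced junctions on mRNA, was at 21.7, 26.5 and 24.6 CPM in WT RIP and 37.7, 40.1 and 35.8 in mutant RIP. Its inputs were at 27.4, 25.5 and 27.6 in the WT line and 26.9, 26.3 and 22.2 in the mutant line. The mutant precipitates lay above all 9 other libraries, and the difference between precipitates was 0.64 ± 0.12 (edgeR adjusted p = 0.000375), while the inputs differed by -0.10 ± 0.12. This was the 1 call of the 11 kept in every fit that left out 1 library, and with total library sizes it was not called.

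The other members higher in mutant RIP had smaller differences. EIF2S1, whose levels are given above, was at 0.45 ± 0.12 (edgeR adjusted p = 0.0108), lost without WT RIP replicate 2 (edgeR adjusted p = 0.0691). EIF2D, which can release or recycle ribosomal subunits, was at 10.9, 11.4 and 12.4 CPM in WT RIP and 18.1, 15.4 and 12.7 in mutant RIP (0.42 ± 0.13, edgeR adjusted p = 0.0273), a narrow gap. It was lower than input in both lines (-0.53 ± 0.13 and -0.35 ± 0.13), but the mutant call was lost without mutant RIP replicate 2, mutant RIP replicate 3 or mutant input replicate 1 (edgeR adjusted p of up to 0.177) and with the GC trend removed (-0.03), and total library sizes gave 0.52 and 0.97. From eIF3, EIF3B was at 39.9, 52.5 and 50.2 CPM in WT RIP and 67.2, 62.2 and 57.1 in mutant RIP (0.39 ± 0.14, edgeR adjusted p = 0.0478). EIF3J, a loosely bound eIF3 subunit, was at 30.3, 29.1 and 31.4 in WT RIP and 41.6, 35.4 and 40.6 in mutant RIP (0.37 ± 0.11, edgeR adjusted p = 0.0189). EIF3F and EIF3M were at 0.36 ± 0.12 each and EIF1, which guards start codon choice, at 0.34 ± 0.12 (edgeR adjusted p = 0.0495).

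Members lower in mutant RIP were EIF1AX, EIF4H and EIF4E2. EIF1AX was at -0.45 ± 0.13 (edgeR adjusted p = 0.0168), from the precipitate levels given above. EIF4H, a helicase cofactor, was at 137, 123 and 122 CPM in WT RIP and 94.3, 102 and 89.1 in mutant RIP (-0.42 ± 0.13, edgeR adjusted p = 0.0213), with inputs at 149, 121 and 152 and at 117, 121 and 100. EIF4E2, a cap-binding paralog linked to repression, was at 34.3, 32.6 and 29.0 CPM in WT RIP and 24.2, 25.9 and 25.9 in mutant RIP (-0.33 ± 0.11, edgeR adjusted p = 0.0315), with all 6 inputs between 37.2 and 38.1. The groups did not overlap for any of the 11. They also did not overlap for 8 uncalled members with higher and 2 with lower levels in mutant RIP. The share of all genes without overlap is not given here. The count of higher members was 2 without WT RIP replicate 1, 4 without WT RIP replicate 2, mutant RIP replicate 1 or mutant RIP replicate 3, and 3 without mutant RIP replicate 2, and that of lower members was 0 without WT RIP replicate 1 and 1 without mutant RIP replicate 2 or mutant RIP replicate 3. It was 0 higher with total library sizes, where EIF4H, EIF1AX and EIF4EBP2 were lower, and 13 higher with DESeq2.

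**Figure D3:**
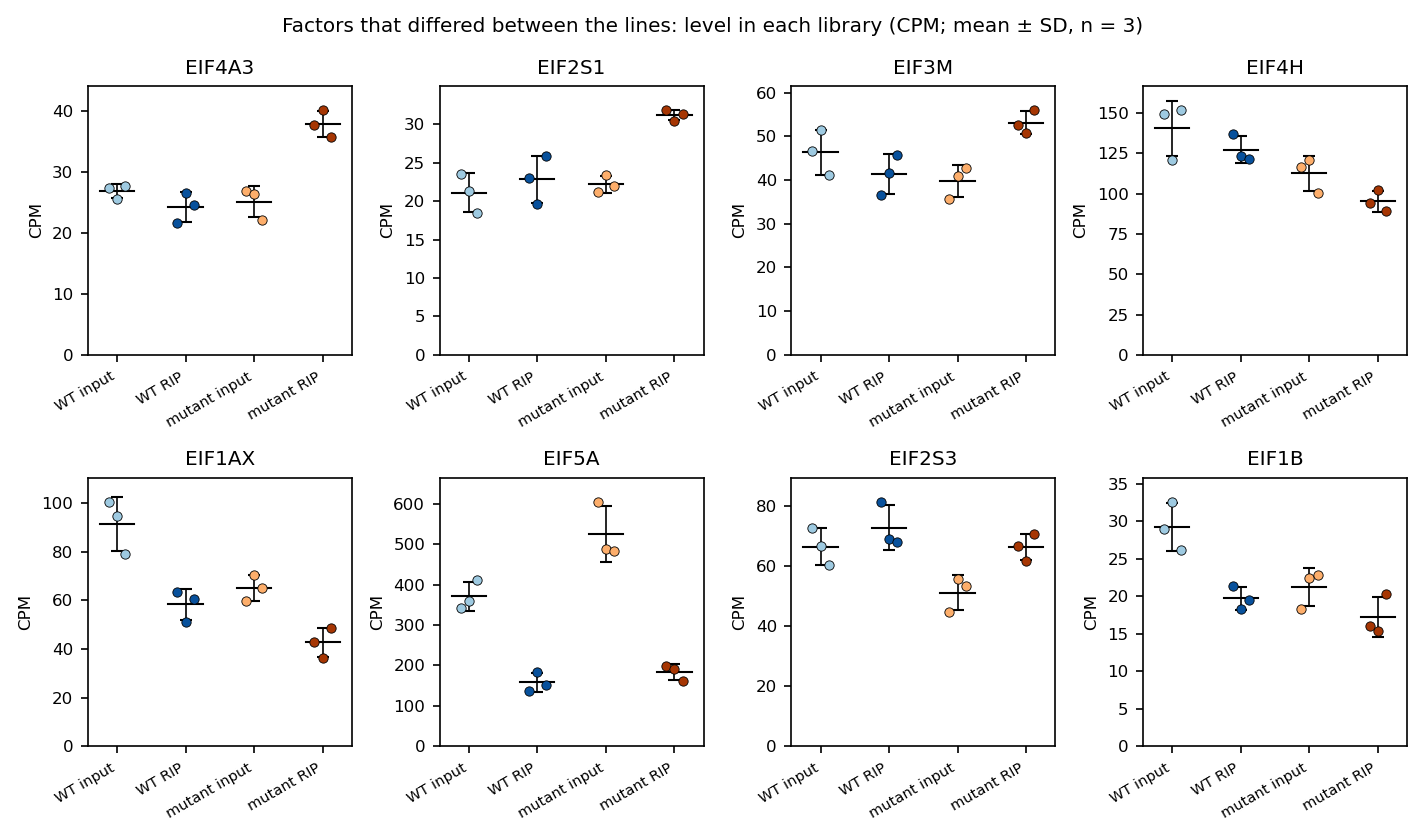
Level in each library (CPM) of 8 members with a called difference between the lines, in precipitates or in inputs, with 1 point per library, a line for the mean and a bar for the SD (n = 3). The 3 mutant precipitates of EIF4A3 at 35.8 to 40.1 CPM stand above its other libraries, and EIF1AX is lower in the mutant line in inputs and precipitates alike; on total library sizes the higher calls between precipitates are lost.

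Between the inputs, which compare the total RNA of both lines, 1 member was higher and 4 were lower in the mutant line, beside 17.5% of all genes called, 7.47% higher and 10% lower. EIF5A was higher at 0.50 ± 0.15 (edgeR adjusted p = 0.0206), from 343 to 412 CPM in WT inputs to 482 to 605 in mutant inputs without overlap. EIF1AX was lower at -0.49 ± 0.13 (edgeR adjusted p = 0.0117). EIF2B3 was at 9.77, 8.54 and 10.1 CPM in WT inputs and 6.11, 8.11 and 6.13 in mutant inputs (-0.48 ± 0.15, edgeR adjusted p = 0.0235). EIF1B, a paralog of EIF1, was at 29.0, 32.6 and 26.2 and at 18.3, 22.5 and 22.8 (-0.46 ± 0.13, edgeR adjusted p = 0.0175). EIF2S3 was at 72.6, 66.7 and 60.4 and at 44.6, 55.8 and 53.3 (-0.38 ± 0.12, edgeR adjusted p = 0.0359; 0.0872 with the GC trend removed). The inputs of these 5 members did not overlap, nor did those of 5 uncalled members with higher and 7 with lower levels in the mutant line. The share of all genes is not given here. None of the 5 calls was kept in every fit that left out 1 library. The higher count was 0 without WT input replicate 1, WT input replicate 2 or mutant input replicate 1 and 2 without either of the other mutant inputs, and the lower count was 0 without WT input replicate 1 and 1 without WT input replicate 2 or mutant input replicate 1. With total library sizes, 27 members were lower and 0 higher. EIF4EBP1, whose input levels are given above and did not overlap, was not called in the main fit. It was higher in mutant inputs with DESeq2 (0.47, DESeq2 adjusted p = 0.0405), without the filter (0.42, edgeR adjusted p = 0.0278) and in further settings. It was not called with total library sizes or with the GC trend removed. In bulk RNA fewer cells with a transcript and less of it per cell cannot be told apart.

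EIF1AX was the 1 member called in both comparisons between lines, lower in mutant inputs and lower in mutant precipitates, and its input call was lost with the GC trend removed (-0.24, edgeR adjusted p = 0.0937). In that setting EIF4H was called lower in both (-0.39 in inputs, edgeR adjusted p = 0.012, and -0.40 in precipitates, edgeR adjusted p = 0.00807). EIF5A was higher in mutant inputs, and its precipitates, at 158 ± 24.3 CPM in WT RIP and 184 ± 19.6 in mutant RIP (SD, n = 3), were not called (0.21 ± 0.15). EIF4A3 was in the opposite position, called between precipitates and not between inputs. The precipitate and enrichment comparisons share libraries, so these values are set side by side and are not independent.

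Per kilobase of exon, EEF1A1 was the most abundant member in 3 of the 4 groups, at 385 ± 23.9 CPM per kb in WT input, 314 ± 27.2 in mutant input and 496 ± 53.6 in WT RIP (SD, n = 3). EEF1G followed in these groups, at 289 ± 30.5, 254 ± 27.4 and 388 ± 23.0. In mutant RIP EEF1B2 was first at 449 ± 54.6, with EEF1A1 at 396 ± 37.3 and EEF1G at 335 ± 66.1, and these neighbours did not differ beyond their spread. In WT RIP EEF1B2 at 386 ± 26.2 was level with EEF1G. EEF2, EIF4A1, EIF5A and EIF4G2 were at 51.9 to 195 CPM per kb in all 4 groups, and EIF4A2 was at 83.0 in mutant RIP. EIF5A was close to EEF1B2 in WT input (138 ± 13.4 against 146 ± 3.31), was above it in mutant input (195 ± 25.8 against 157 ± 19.2), and was much lower in WT RIP (58.9 ± 9.06). Exon length is the union over transcripts, so a gene with long rare exons is understated.

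Several factor genes host small nucleolar RNAs (snoRNAs), which guide RNA modification, and some annotated exons contain them. In EIF4A2, 5 such snoRNA genes (SNORA63 with 2 copies, SNORA81, SNORD2 and SNORA4) held counts that came to 42.5% ± 15.2 of the gene's own in WT inputs, 33.4% ± 7.97 in WT RIP, 50.1% ± 2.70 in mutant inputs and 38.3% ± 10.6 in mutant RIP (SD, n = 3). In EIF4G2, an eIF4G relative that does not bind eIF4E, SNORD97 came to 1.62% ± 0.490, 17.7% ± 6.94, 1.72% ± 0.510 and 20.9% ± 9.22 in the same order. SNORA41 in EEF1B2 came to at most 4.95% in any library, and SNORD37 in EEF2 to at most 1.43%. Whether a read in both genes was counted for both is not stated. EEF1G and a readthrough gene over 99.7% of its exon bases held 542978 and 546339 counts. On the annotation used here, shared reads thus entered both of those totals. Subtraction was tried as an alternative chosen after seeing the data.

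With the snoRNA counts subtracted, EIF4A2 stood at 110, 110 and 91.2 CPM in WT inputs, 214, 239 and 243 in WT RIP, 74.6, 105 and 103 in mutant inputs, and 276, 306 and 334 in mutant RIP. The spread within groups was narrower, and the enrichments were 1.16 ± 0.14 (edgeR adjusted p = 2.41e-07) and 1.69 ± 0.15 (edgeR adjusted p = 3.61e-10). EIF4G2 was at 620, 618 and 561 CPM in WT inputs, 408, 478 and 436 in WT RIP, 510, 522 and 524 in mutant inputs, and 396, 448 and 542 in mutant RIP as deposited. It was called in the WT line (-0.44 ± 0.14, edgeR adjusted p = 0.012; 0.0626 without WT input replicate 1) and not in the mutant line (-0.17 ± 0.14), where 1 precipitate lay above the inputs. After subtraction it was lower in both, at -0.71 ± 0.13 (edgeR adjusted p = 7.54e-05) and -0.50 ± 0.13 (edgeR adjusted p = 0.00239), while total library sizes gave 0.61 and 1.13 for the counts as deposited. EEF1B2 moved little, to 1.35 ± 0.15 and 1.46 ± 0.15, and EIF4A1 stayed lower in the WT line at -0.42 ± 0.14. A same-strand noncoding gene shares 42.1% of the exon bases of EIF4A1.

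**Figure D4:**
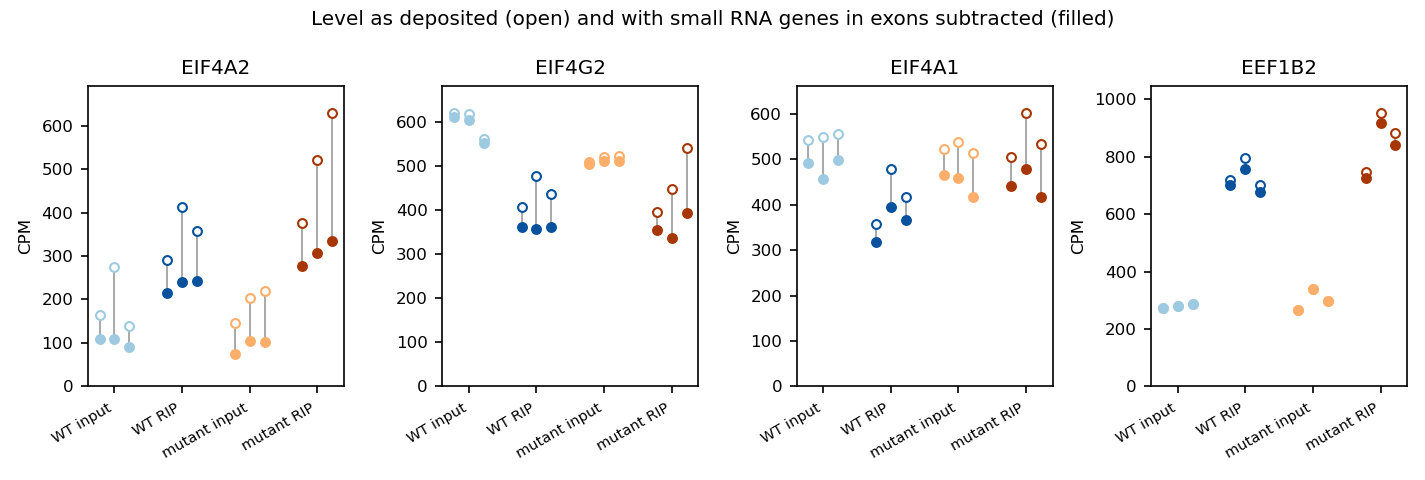
Level in each library (CPM) of 4 members with snoRNA genes in their exons, as deposited (open points) and after subtracting those counts (filled points), joined by a line. For EIF4A2 the gap is large in every group and the WT inputs draw together at 91.2 to 110 CPM, while for EIF4G2 the gap is wider in precipitates than in inputs.

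What the members in each direction shared was described from their longest coding transcripts. GC content had a median of 43.98% in the 10 members higher in both lines, 54.3% in the 19 lower in both, 43.1% in the 29 in neither set, 46.4% in all 58 and 48.2% over all coding genes tested. The Spearman correlation of GC content with enrichment across the 58 members was -0.57 in the WT and -0.59 in the mutant line, beside -0.45 and -0.54 across 13843 coding genes. Genes share the same libraries and are not independent, and these values are descriptions. When coding genes were divided into 3 equal classes by GC content, in the highest class the median enrichment was -0.67 (WT) and -0.83 (mutant), and for the 13 members there it was -0.84 and -0.83. In the lowest class the medians were 0.18 and 0.38 for coding genes and 0.13 and 0.37 for the 21 members. EEF1B2, with 49.4% GC, lay far above the trend, and EIF1AX, with 35.1%, below it.

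**Figure D5:**
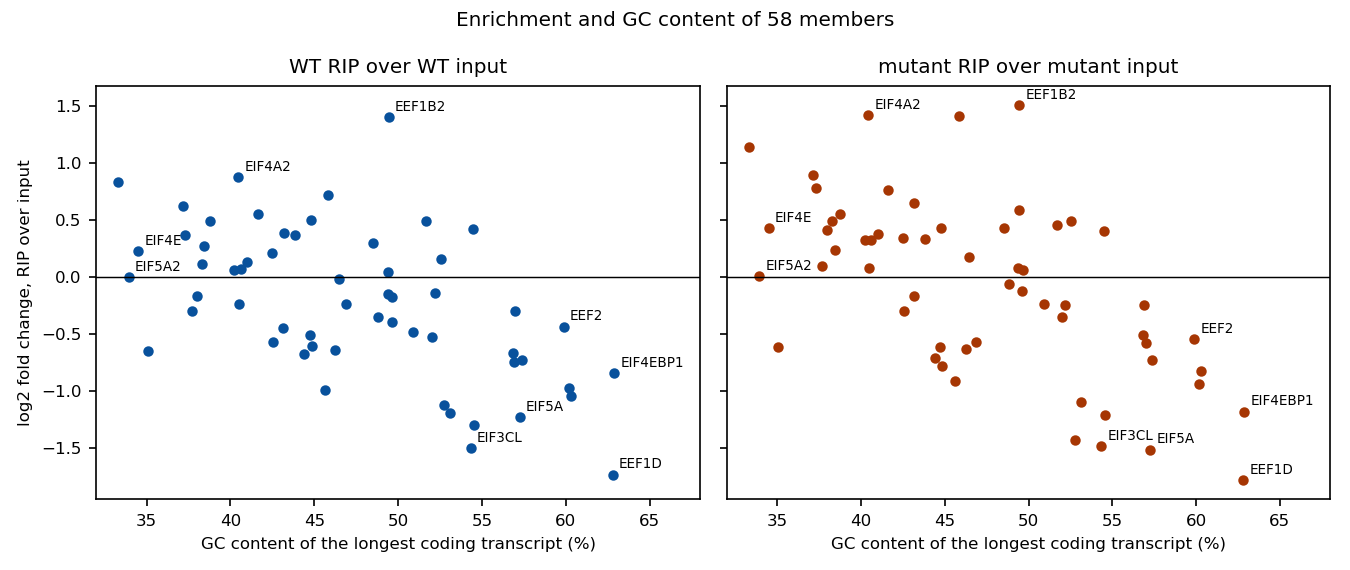
GC content of the longest coding transcript (horizontal axis, %) against the log2 fold change of RIP over input (vertical axis) for the 58 tested members in the WT (left) and mutant (right) lines, with 1 point per gene and no error bars. Points fall from upper left to lower right, from EIF4A2 to EEF1D, with EEF1B2 above the rest; total library sizes shift all points up by about the same amount.

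The 3' UTRs of members lower in both lines were shorter and held fewer motifs. Their median length was 498 bases, beside 1310 in members higher in both lines, 1785 in the 29 members in neither set and 1369 over coding genes. The motif ATTTA, the core of AU-rich elements, searched on the mRNA strand, was in the 3' UTR of 8 of the 10 higher members, 8 of the 19 lower ones (42.1%), 25 of the 29 in neither set (86.2%) and 41 of all 58 (70.7%), beside 72.8% of coding genes. A run of 7 T (TTTTTTT, overlaps allowed) was in 7 of 10, 7 of 19 (36.8%), 22 of 29 (75.9%) and 36 of 58 (62.1%), beside 51.3%. These shares are not matched on length, and a short 3' UTR has fewer chances to hold a motif. EEF1B2 held 1 ATTTA and no run of 7 T in its 44 bases, and EEF1D held neither in 64 bases. EIF3E held 22 ATTTA and was higher, and EIF5A held runs of 7 T and was lower. The 29 members in neither set had the longest 3' UTRs and the highest motif shares. Length and motif shares thus did not run in 1 order from lower to higher members. The share of T in the 3' UTR did, with medians of 26.0% in lower members, 31.7% in neither set and 32.8% in higher ones, beside 29.8% over coding genes. Its Spearman correlation with enrichment was 0.48 (WT) and 0.51 (mutant) across members, beside 0.36 and 0.43 across coding genes. The cause was not tested.

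Other genes of the translation pathway, from a fixed list of 52 outside the rule with 51 tested, give the setting. In the WT line 11 were higher and 22 lower, in the mutant line 13 and 19, in the difference of enrichments 0 and 0 by edgeR (DESeq2 called 2, and 8 had an edgeR p under 0.05 before adjustment), between precipitates 10 and 4, and between inputs 2 and 8. Over all genes 25.6% were higher and 25.4% lower in the WT line, and 29% and 28% in the mutant line. Coding genes alone had 22% and 34%, and 26.6% and 36.1%. All-gene shares between precipitates were 9.87% and 9.76%, and between inputs 7.47% and 10%. Of 7 genes listed as kinases that act on these factors, which take in the MTOR partner RPTOR, 5 were called lower in each line. In the mutant line 1 was called higher. Among the lower ones was MTOR, the kinase that acts on EIF4EBP1 (-1.21 ± 0.13 and -1.24 ± 0.13). TUFM, the mitochondrial counterpart of eEF1A, was lower at -1.56 ± 0.14 and -1.73 ± 0.14, and DHPS, which starts hypusine formation on EIF5A, at -1.06 ± 0.14 and -0.77 ± 0.14. PAIP2, an inhibitor of poly(A)-binding protein, was higher at 0.79 ± 0.12 and 1.08 ± 0.12. The values of these named genes are on the TMM scale. Those with total library sizes or with the GC trend removed are not given here. GCN1, which activates the eIF2 kinase GCN2, was higher in mutant than in WT precipitates (0.75 ± 0.15, edgeR adjusted p = 0.00062). IMPACT, which counters GCN1, was lower in mutant than in WT inputs (-0.86 ± 0.15, edgeR adjusted p = 0.000357).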

How the data were processed

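RNA from V5 precipitates and from inputs of 2 HuH-7 lines was sequenced in 12 libraries, with a stranded total RNA kit per the labels' protocols. The authors deposited raw read counts per gene for each library. The submitters' processing notes name bcl2fastq 2.20.0.422, cutadapt, STAR 2.4.0j, featureCounts 1.6.4 and hg19. How reads with several alignments or several genes were handled, whether strand was used in counting, and which annotation was used are not given in the sources used here. Identifiers were matched to GENCODE 44 on GRCh37 (55538 of 57773, with up to 21.0% of a library's counts in unmatched ones).

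Genes were filtered with filterByExpr (minimum count 10, minimum total 15), scaled by TMM and fitted over all 4 groups with edgeR 4.0.16 (quasi-likelihood test, R 4.3.3), with Benjamini-Hochberg adjustment over all 22984 genes at 0.05. The script was tested on simulated data. Values in every library were given for up to 5 called members with the highest and 5 with the lowest value in each comparison whose groups did not overlap, and for 13 members named individually. For the sequences, members on chromosome 8 were not eligible. Members and lists were chosen with earlier results of these data known.

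Alternatives were DESeq2 1.42.0 and its size factors, total library sizes, TMM factors from coding genes, no filter or a stricter one, coding genes only, a fit of only the groups compared, a replicate block, a GC trend removed by loess (span 0.5), the longest 3' UTR, and leaving out each library. Subtracting small RNA genes and leaving out the methyltransferases were added after seeing the data. Replicates differed by more than counting noise (chi-square per degree of freedom 15.0 to 229), so no library was a copy of another. Sequences were read from GENCODE transcripts and checked against the genome, and protein sequences were not used here. One marker gene and 1 sequence are not reported here.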

Additional observations from a re-analysis of the deposited data

How the results depend on the processing

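Where precipitates were set against inputs the scale decided many signs. With total library sizes 42 members were higher and 2 lower in the WT comparison, and 48 and 1 in the mutant one. The log2 values that changed sign there in the WT comparison were EEF2 0.62, EIF1 1.04, EIF1AX 0.42, EIF1B 0.51, EIF2B1 0.45, EIF2B2 0.053, EIF2B3 0.69, EIF2B4 0.39, EIF2D 0.52, EIF2S2 0.38, EIF3B 0.29, EIF3D 0.57, EIF3G 0.065, EIF3J 0.76, EIF3L 0.87, EIF3M 0.90, EIF4A1 0.65, EIF4A3 0.90, EIF4E2 0.82, EIF4EBP1 0.20, EIF4EBP2 0.57, EIF4G1 0.30, EIF4G2 0.61, EIF4H 0.90, EIF5 0.82, EIF5A2 1.08 and EIF5AL1 0.43. In the mutant comparison they were EEF2 0.78, EIF1AX 0.70, EIF1B 1.01, EIF2B1 0.53, EIF2B2 0.39, EIF2B3 1.26, EIF2B4 0.79, EIF2D 0.97, EIF2S2 0.60, EIF3B 1.06, EIF3C 0.10, EIF3D 1.08, EIF3G 0.38, EIF3I 0.21, EIF3L 1.19, EIF4E2 0.74, EIF4EBP1 0.12, EIF4EBP2 0.71, EIF4G1 0.58, EIF4G2 1.13, EIF4H 1.07, EIF5AL1 0.67 and EIF6 0.48. With the trend of each library with GC content removed, the signs turned for EEF2 0.32 and EIF4EBP1 0.069 in the WT comparison and for EEF2 0.40, EIF2B4 0.19, EIF3B 0.48, EIF3F -0.017, EIF3G 0.029, EIF3H -0.022, EIF3J -0.37, EIF3M -0.029, EIF4E -0.17, EIF4G1 0.017, EIF5 -0.27, EIF5A2 -0.61 and EIF6 0.15 in the mutant one, where 13 members were higher. The same correction with the replicate block gave EEF2 0.32 and EIF4EBP1 0.062 in the WT comparison, and EEF2 0.40, EIF2B4 0.19, EIF3B 0.48, EIF3F -0.021, EIF3G 0.024, EIF3H -0.022, EIF3J -0.37, EIF3M -0.028, EIF4E -0.17, EIF4G1 0.016, EIF5 -0.27, EIF5A2 -0.61 and EIF6 0.14 in the mutant one, again with 13 higher. TMM factors from coding genes, or coding genes alone, gave 17 higher members in the WT comparison.

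For the difference of the enrichments, DESeq2 and the GC correction with and without the block gave 2 higher members, and no filter, coding genes alone and the block within line gave 1. Between precipitates 0 members were higher with total library sizes, 3 without the filter, 13 with DESeq2, with a filter of 50 counts in 3 libraries or with the GC correction, 15 with coding genes alone and 16 with the GC correction and the block. In the last setting, and with the GC correction alone, 5 were lower. Between inputs 0 were higher and 27 lower with total library sizes, 2 and 7 with the GC correction, and 4 and 9 with that and the block. Coding genes alone gave 3 higher, and DESeq2, its size factors, TMM factors from coding genes, no filter, the stricter filter, a fit of only the groups compared and the replicate block gave 2 higher. The cause was not tested for any of these.

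Leaving out 1 library at a time gave 8 to 11 higher and 21 to 25 lower members in the WT comparison, 16 to 21 and 19 to 21 in the mutant one, 0 and 0 in the difference of the enrichments, 2 to 6 and 0 to 3 between precipitates, and 0 to 2 and 0 to 3 between inputs. The samples share only a replicate number: same-numbered libraries had correlated deviations in some pairs (0.61 for RIP replicate 2) and not in others (-0.52 for input replicate 3), and not every library correlated best with its own number. The replicate block gave 10 higher members between precipitates and changed no count by more than 1.5 times other than that of the higher inputs. Members under about 1 CPM (EIF4EBP3, EEF1A2 and EIF4E1B) are limited by depth.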
